A study of Arabidopsis thaliana with 6 samples.

Results

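The thylakoid lumen is the narrow aqueous space enclosed by the photosynthetic membranes of the chloroplast. Its proteins are encoded in the nucleus, made in the cytosol and carried first into the chloroplast and then across the thylakoid membrane. They stabilise the water-splitting site of photosystem II, carry electrons towards photosystem I, fold and repair membrane complexes and cut or degrade proteins. A list of 45 nuclear genes for lumen proteins was taken as the starting point, by locus and not by any measured value. The annotation table of the array paired 24 of the 45 with a probe set of their own, against 22746 non-control probe sets in all. The other 21 were not paired and were not analysed here. They include PSBP-1, PSBQA and PSBQ-2 of the oxygen-evolving complex and the PsbP domain genes PPL1, PPD1, PPD5 and PPD6. Also among them are the plastocyanin genes PETE1 and DRT112 and 5 lumen subunits of the chloroplast NDH complex. The rest are the proteases DEG1, DEG5 and DEG8, the immunophilins FKBP13 and CYP38, and TLP18.3 and TL29. Below, a gene that had a probe set is one that this table paired. As 8730 probe sets were paired with no gene and 503 with several, an unpaired gene may still be read by the array. What follows therefore covers the immunophilins and the smaller lumen proteins better than it covers the abundant photosystem II subunits or plastocyanin. Of the 8 genes listed under PsbP domain proteins it covers 4. Each gene was counted in a single group, so lumen subunits of the NDH and oxygen-evolving complexes are in no other group.

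The RNA came from vegetative rosettes of the Col-0 accession of Arabidopsis thaliana. It was read on 6 Affymetrix ATH1 arrays, 3 of watered plants and 3 of plants under water deficit, with 1 biological replicate on each. All plants were 4 weeks old when the treatments parted. The water deficit group was sampled at a relative water content of 65%, reached by drying, and the watered group was kept moist. No transgene or mutation was involved, and the groups differed only in watering as far as the labels say. The values used here are array signals brought to a common distribution over the 6 arrays (quantile normalization), given on the log2 scale, and they state the level of a transcript relative to all others on its array. A floor of 18.5 normalized units, or 4.21 on the log2 scale, marks background.

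Transcripts of 19 of the 24 lumen genes fell under water deficit, and none of the 24 rose. Among all 13703 probe sets tested 23% were lower and 21.8% were higher at the same threshold, a limma adjusted p under 0.05. The median log2 fold change (water deficit minus watered) of the 24 genes was -1.49, beside 0.038 for all tested probe sets. All 24 estimates were below 0, and they ranged from -2.41 for AT4G24930 to -0.077 for AT1G77090. The value of AT1G74070, -2.34, is limited by the floor and was -3.03 with the floor at the 25th percentile and -1.50 with the floor doubled. The groups did not overlap, with the water deficit arrays lower, at 21 of the 24 genes and at 28% of tested probe sets. A fall of at least 4-fold at an unadjusted p of at most 0.001 was met by 3 of the 24 genes and by 4.15% of tested probe sets. All 24 genes passed the filter on low signals, and 23 of them were above the floor on all 6 arrays, so each was measured in both groups.

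The same shift can be read from the position of the genes on each array, which no scaling between arrays can alter. When all non-control probe sets of an array were ranked by their deposited signal, the median lumen gene stood at percentile 89.0, 88.0 and 87.5 on watered arrays 1, 2 and 3. On water deficit arrays 1, 2 and 3 it stood at percentile 76.3, 73.1 and 72.6. The groups were apart, and the median lumen gene remained in the upper part of the range on every array. Single genes could stand lower: AT1G74070 had a mean percentile of 71.1 on watered arrays and 34.3 on water deficit arrays. The median deposited signal of the 24 genes, before any scaling, was 133, 380 and 261 intensity units on watered arrays 1, 2 and 3 and 75.0, 194 and 163 on water deficit arrays 1, 2 and 3. These unscaled values overlapped between the groups, but each water deficit array lay below the watered array of the same number.

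The fall is thus one relative to the other transcripts of the rosette. Without scaling, the median log2 fold change of all tested probe sets was 0.51, and it was 0.48 after scaling on the spike-in controls. The split of calls over the whole array moved with it, from 48.7% higher among all calls with quantile normalization to 73.6% without scaling and 71.9% with spike-in scaling. The 24 lumen genes then had medians of -0.999 and -1.04. Their difference from the median of all tested probe sets was -1.51 and -1.52, compared with -1.53 under quantile normalization. Spike-in scaling multiplies each array by a single factor, which moves both medians nearly alike, so -1.51 and -1.52 could hardly differ. The median standard error of the 24 genes was 0.709 log2 units without scaling, against 0.219 with quantile normalization. In that setting 0 of the 24 genes were called lower without scaling (4 of 24 had an unadjusted p under 0.05) and 3 with spike-in scaling, by limma in each case, against 2.48% and 3.5% of tested probe sets called lower. With the replicate number as a block, a choice made after the values had been seen, 14 of the 24 were called lower under each of these 2 scalings, and the same 14 under both, against 12.7% and 12.6% of tested probe sets. The 5 genes called with quantile normalization but not among these 14 were AT1G03600, AT1G18170, AT3G05410, AT5G35100 and AT5G42765. Their log2 fold changes ranged from -0.54 to -0.16 without scaling and from -0.59 to -0.20 with spike-in scaling. In whole rosettes, fewer cells of a type and less RNA per cell cannot be told apart.

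**Figure D1:**
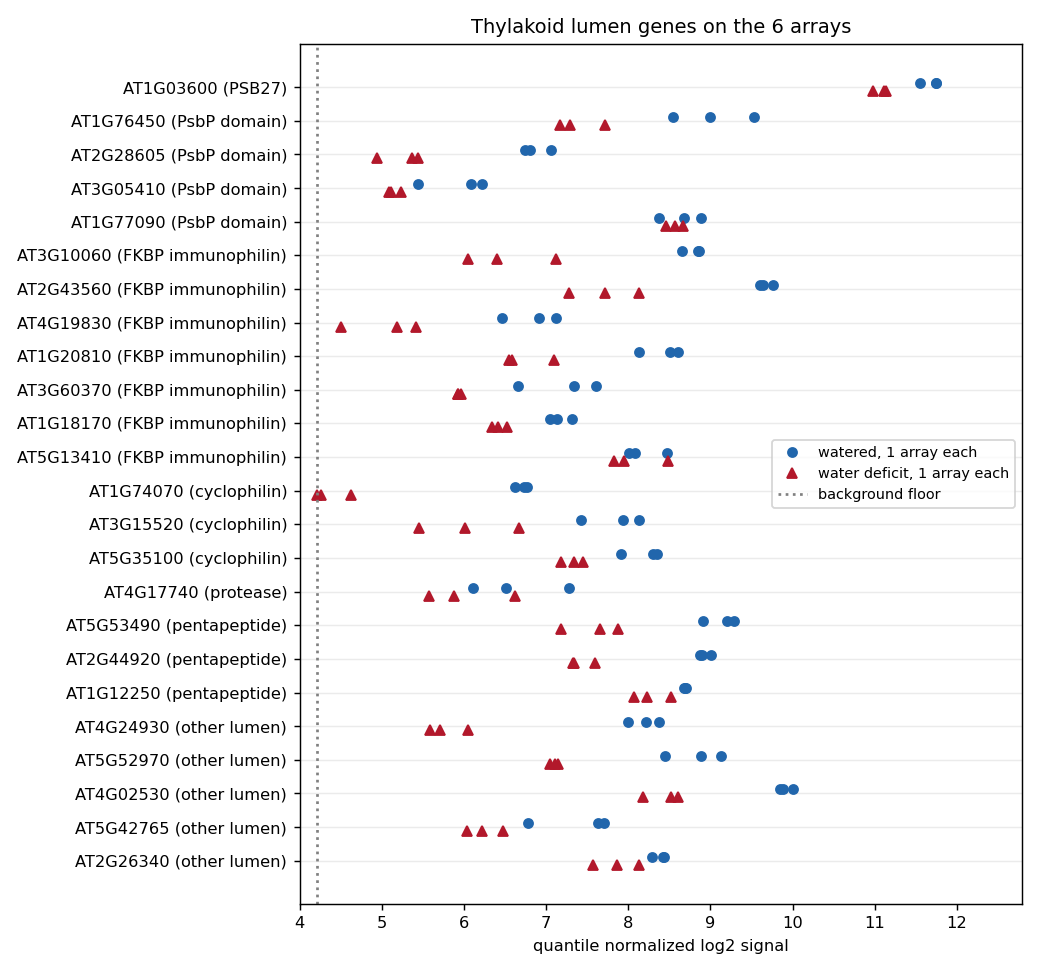
Quantile normalized log2 signal (horizontal axis) of the 24 lumen genes on each array, with watered arrays as circles and water deficit arrays as triangles, grouped by protein family; the dotted line is the background floor at 4.21. At 21 genes the triangles lie entirely left of the circles, and at AT1G77090, AT5G13410 and AT4G17740 they overlap.

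PSB27 (AT1G03600) encodes a protein that binds photosystem II during its assembly and repair. Its log2 signal was 11.55, 11.74 and 11.74 on watered arrays 1, 2 and 3 and 10.98, 11.12 and 11.13 on water deficit arrays 1, 2 and 3. The groups did not overlap and the replicates lay close together. With quantile normalization the fall was small, with a log2 fold change of -0.60 ± 0.17 (SE, 3 against 3 arrays, limma adjusted p = 0.0201), or 1.52-fold. PSB27 lost its call when watered replicate 2 or 3 or any 1 of the water deficit replicates was left out. Limma adjusted p-values were then between 0.0508 and 0.0838 and log2 fold changes between -0.65 and -0.55. The size also depended on the scaling. The log2 fold change was -0.92 with median scaling (limma adjusted p = 0.00321). It was -0.37 without scaling and -0.41 with spike-in scaling, neither of them called.

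Proteins with a PsbP domain descend from the same ancestor as the PsbP subunit of photosystem II, and relatives of that subunit serve the assembly of several thylakoid complexes. Of 8 listed, 4 had a probe set, and 3 of these fell. AT1G76450 had a log2 signal of 9.53, 8.997 and 8.54 on watered arrays 1, 2 and 3 and of 7.72, 7.28 and 7.17 on water deficit arrays 1, 2 and 3. Its lowest watered array was thus above its highest water deficit array, although the watered arrays differed among themselves. Its log2 fold change was -1.63 ± 0.28 (SE, 3 against 3 arrays, limma adjusted p = 0.00255), a 3.09-fold fall. AT2G28605 fell 3.06-fold and AT3G05410 1.70-fold. The last was the least secure call of the family, since it was lost on leaving out any single array but watered replicate 1, with the floor at the 25th percentile and with no filter, at adjusted p-values from 0.0651 to 0.105.

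AT1G77090 stood apart from these relatives. Its log2 signal was 8.88, 8.67 and 8.38 on watered arrays 1, 2 and 3 and 8.67, 8.57 and 8.46 on water deficit arrays 1, 2 and 3, so all water deficit values lay inside the watered range. The log2 fold change was -0.077 ± 0.19 (SE, 3 against 3 arrays, limma adjusted p = 0.770), with a 95% confidence interval from -0.52 to 0.37. The fall estimated for AT1G76450 lies outside this interval. Without scaling its estimate was 0.43 and with spike-in scaling 0.39, neither of them called.

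Immunophilins make up a large share of the lumen proteins. They comprise FK506-binding proteins (FKBPs) and cyclophilins, which belong to separate families of prolyl isomerases and serve mainly as helpers in the assembly and upkeep of thylakoid complexes. Of 12 listed under these families, with the NDH subunits kept apart, 10 had a probe set. Of the 10, 9 fell, and the median log2 fold change was -1.73. The range among them ran from -2.34 to -0.10.

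Of the 8 FKBPs listed 7 were measured and 6 fell. AT3G10060 had a log2 signal of 8.86, 8.66 and 8.85 on watered arrays 1, 2 and 3 and of 7.13, 6.40 and 6.05 on water deficit arrays 1, 2 and 3. Watered arrays agreed closely and water deficit arrays spread over more than a log2 unit, all of them below the watered ones. The log2 fold change was -2.26 ± 0.28 (SE, 3 against 3 arrays, limma adjusted p = 0.000492), or 4.80-fold. AT2G43560 had a log2 signal of 9.76, 9.64 and 9.60 on watered arrays 1, 2 and 3 and of 8.13, 7.72 and 7.28 on water deficit arrays 1, 2 and 3. It showed the same picture of tight watered and wider water deficit values, and it fell 3.88-fold (log2 fold change -1.95 ± 0.24, SE, 3 against 3 arrays, limma adjusted p = 0.000467).

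The remaining FKBPs that fell covered a range of sizes. AT4G19830 fell 3.48-fold and AT1G20810 3.20-fold, while AT3G60370 fell 2.39-fold and AT1G18170 1.67-fold. The log2 fold change of AT1G18170 was only -0.16 without scaling and -0.20 with spike-in scaling, neither of them called. Pairs of the same replicate number, which deviated together on these arrays, differed in the depth of the fall. The change of AT4G19830 was -2.62 in replicate 1, -1.49 in replicate 2 and -1.29 in replicate 3, whereas that of AT3G10060 was -1.73, -2.26 and -2.81 in replicates 1, 2 and 3. The replicate with the deepest fall therefore was not the same for these genes, and the fall was present in each replicate for both.

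AT5G13410 was the FKBP that did not pass the test. Its log2 signal was 8.47, 8.08 and 8.01 on watered arrays 1, 2 and 3 and 8.48, 7.95 and 7.82 on water deficit arrays 1, 2 and 3. The groups overlapped, and the values of same-numbered arrays lay near each other. The log2 fold change was -0.10 ± 0.24 (SE, 3 against 3 arrays, limma adjusted p = 0.745), with a 95% confidence interval from -0.65 to 0.44. It was 0.43 without scaling and 0.39 with spike-in scaling, neither of them called.

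All 3 cyclophilins with a probe set, of 4 listed, fell. AT1G74070 had a log2 signal of 6.62, 6.76 and 6.73 on watered arrays 1, 2 and 3 and of 4.21, 4.62 and 4.26 on water deficit arrays 1, 2 and 3. Water deficit replicate 1 was at the floor and the other two were just above it, so this transcript was close to background in dry rosettes. It was at least 5.07-fold lower (log2 fold change -2.34 ± 0.19, SE, 3 against 3 arrays, limma adjusted p = 6.44e-05). AT3G15520, a relative of the photosystem II assembly factor CYP38, fell 3.45-fold (log2 fold change -1.79 ± 0.33, SE, 3 against 3 arrays). AT5G35100 had a log2 signal of 7.91, 8.31 and 8.35 on watered arrays 1, 2 and 3 and of 7.18, 7.34 and 7.45 on water deficit arrays 1, 2 and 3. Its fall was 1.82-fold, with groups that did not overlap. The log2 fold change of AT5G35100 was only -0.30 without scaling and -0.35 with spike-in scaling, neither of them called.

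AT4G17740 encodes a carboxyl-terminal processing protease, the kind that trims the end of newly made D1, the core protein of photosystem II, so that the water-splitting manganese cluster can form. It was the 1 gene of 4 listed proteases that the annotation table paired with a probe set. Its log2 signal was 7.27, 6.51 and 6.11 on watered arrays 1, 2 and 3 and 6.62, 5.88 and 5.58 on water deficit arrays 1, 2 and 3. The groups overlapped, and in both of them replicate 1 was highest and replicate 3 lowest. The log2 fold change of -0.60 ± 0.36 (SE, 3 against 3 arrays, limma adjusted p = 0.213) did not pass the test. Taken by replicate number, the change was -0.65, -0.63 and -0.53 in replicates 1, 2 and 3, and with the replicate number as a block the limma adjusted p was 0.0197. With this block 20 of the 24 lumen genes were called lower, against 25.5% of tested probe sets, and AT4G17740 was the gene added. These values are from quantile normalization. The log2 fold change of AT4G17740 was -0.044 without scaling and -0.087 with spike-in scaling, not called with or without the block.

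**Figure D2:**
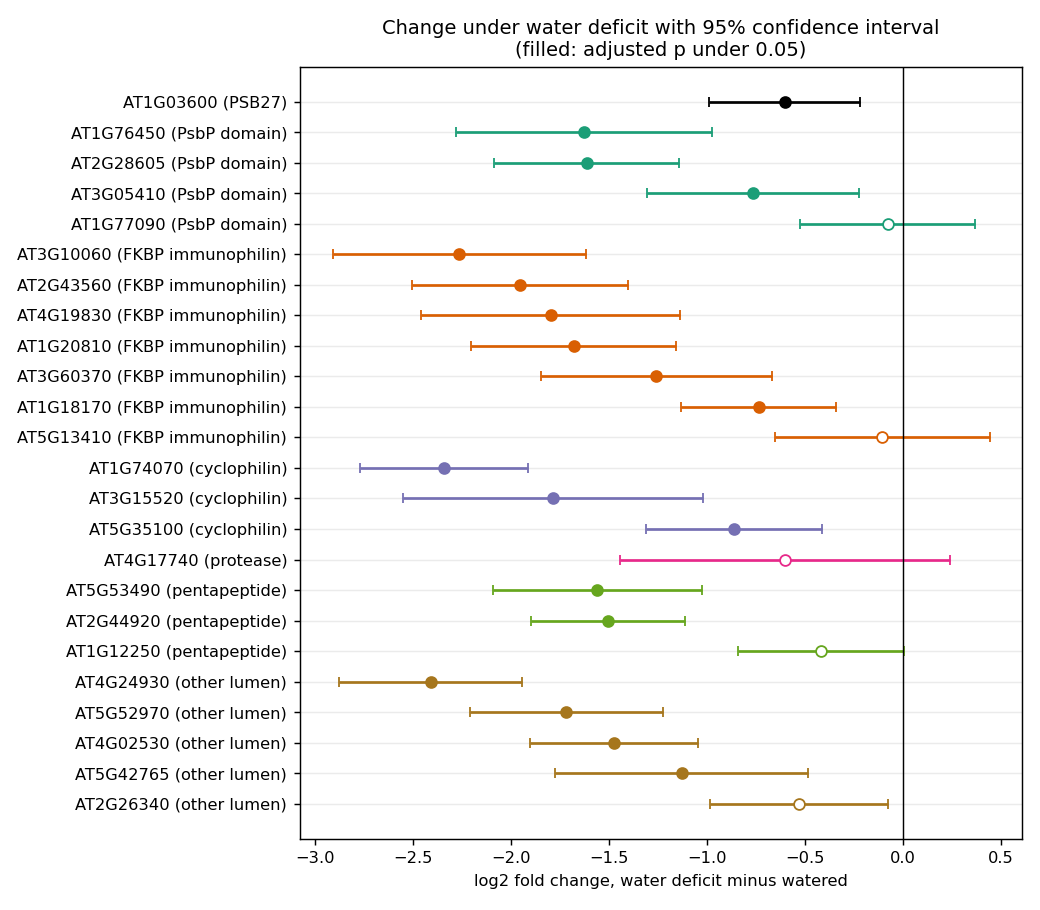
Log2 fold change (water deficit minus watered, horizontal axis) of each of the 24 lumen genes, with its 95% confidence interval from limma, coloured by family; filled points have an adjusted p under 0.05. All points lie below 0, and the intervals of AT1G77090, AT5G13410, AT4G17740 and AT1G12250 cross it.

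Pentapeptide repeat proteins coil into a square helix built from short repeats, and those of the lumen have no settled function. All 3 on the list had a probe set and 2 fell. AT5G53490 had a log2 signal of 8.91, 9.29 and 9.20 on watered arrays 1, 2 and 3 and of 7.18, 7.66 and 7.88 on water deficit arrays 1, 2 and 3. The groups were well separated, and it fell 2.95-fold (log2 fold change -1.56 ± 0.23, SE, 3 against 3 arrays, limma adjusted p = 0.00119). AT2G44920 fell 2.84-fold. AT1G12250 had a log2 signal of 8.71, 8.69 and 8.68 on watered arrays 1, 2 and 3 and of 8.52, 8.23 and 8.07 on water deficit arrays 1, 2 and 3. Every water deficit array lay below every watered array, but by little, and the log2 fold change of -0.42 ± 0.18 (SE, 3 against 3 arrays, limma adjusted p = 0.0972) did not pass the test. Its estimate was 0.094 without scaling and 0.051 with spike-in scaling, so its direction rested on the scaling.

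Of the 7 other lumen proteins listed 5 were measured and 4 fell. AT4G24930 had a log2 signal of 8.38, 8.21 and 7.99 on watered arrays 1, 2 and 3 and of 5.59, 6.05 and 5.71 on water deficit arrays 1, 2 and 3. It fell 5.31-fold (log2 fold change -2.41 ± 0.20, SE, 3 against 3 arrays, limma adjusted p = 8.21e-05). Its product is known from the lumen proteome without a settled role. AT4G02530, known for its part in the repair of photosystem II under changing light, had a log2 signal of 9.85, 10.003 and 9.89 on watered arrays 1, 2 and 3 and of 8.60, 8.52 and 8.18 on water deficit arrays 1, 2 and 3. It fell 2.78-fold, with little spread in either group. AT5G52970 fell 3.29-fold and AT5G42765 2.19-fold, and the latter lost its call without watered replicate 2 (limma adjusted p = 0.0520) and with no filter on low signals (0.0802).

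AT2G26340 had a log2 signal of 8.43, 8.29 and 8.43 on watered arrays 1, 2 and 3 and of 8.13, 7.86 and 7.57 on water deficit arrays 1, 2 and 3. The groups did not overlap, yet the log2 fold change of -0.53 ± 0.20 (SE, 3 against 3 arrays, limma adjusted p = 0.0592) narrowly missed the threshold. It passed with median scaling (limma adjusted p = 0.0474), with the floor doubled (0.0424) and without water deficit replicate 1 (0.0350), and its estimate was 0.014 without scaling. Among the 5 genes not called, AT1G77090 and AT5G13410 thus had estimates near 0 and the other 3 had estimates between -0.60 and -0.42.

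**Figure D3:**
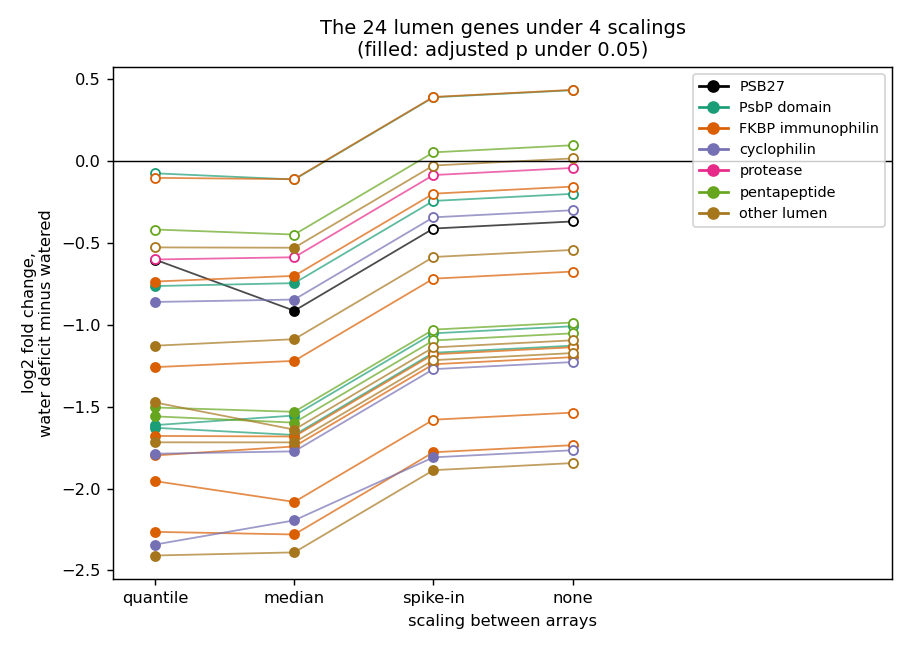
Log2 fold change (vertical axis) of the 24 lumen genes under 4 ways of scaling the arrays, 1 line per gene coloured by family, with filled points for an adjusted p under 0.05. The median of the 24 is -1.49 with quantile normalization, -1.54 with median scaling, -1.04 with spike-in controls and -0.999 for unscaled arrays.

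Relatives on the same array can be compared without any scaling between arrays. In each family with several measured genes, the deepest and the shallowest change among genes above the floor on all arrays were set against each other, from the deposited signals. The genes of each couple were chosen for their differing changes, so the values describe them and were not tested. The log2 ratio of AT1G76450 to AT1G77090 was 0.73, 0.33 and 0.16 on watered arrays 1, 2 and 3 and -0.91, -1.28 and -1.27 on water deficit arrays 1, 2 and 3. The log2 ratio of AT3G10060 to AT5G13410 was 0.43, 0.59 and 0.85 on watered arrays 1, 2 and 3 and -1.30, -1.57 and -1.77 on water deficit arrays 1, 2 and 3. For both couples the ratio was lower on every water deficit array, and its mean differed by -1.56 ± 0.21 and -2.17 ± 0.18 log2 units between the groups (SE, 3 against 3 arrays). The ratio of AT4G24930 to AT2G26340 differed by -1.86 ± 0.23 and that of AT5G53490 to AT1G12250 by -1.15 ± 0.35 (SE, 3 against 3 arrays), again without overlap. The cyclophilins AT3G15520 and AT5G35100 changed less unequally, by -0.93 ± 0.52 (SE, 3 against 3 arrays), and there the groups overlapped.

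**Figure D4:**
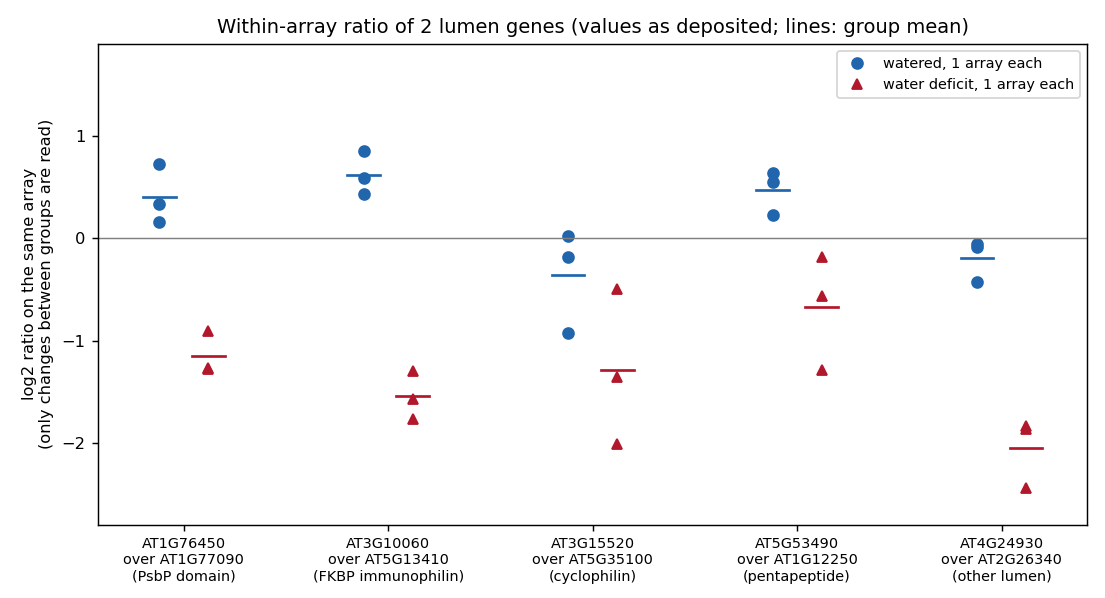
Log2 ratio of 2 lumen genes of a family on the same array, from the deposited signals (vertical axis), for 5 couples; circles are watered arrays, triangles water deficit arrays and short lines group means. Triangles lie below all circles in every couple but AT3G15520 over AT5G35100; the height itself carries no meaning, since probe sets differ in brightness.

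Lumen proteins reach their site through the Sec and twin-arginine routes, and 2 of 9 listed genes of this machinery had a probe set. Both fell. AT5G28750, a twin-arginine translocation component, had a log2 fold change of -1.05 ± 0.21 and SECE1, a small subunit of the Sec channel, one of -0.87 ± 0.25 (SE, 3 against 3 arrays, limma adjusted p = 0.00553 and 0.0219). SECE1 lost its call on leaving out any single array but watered replicate 1, with the floor at the 25th percentile and with no filter, at limma adjusted p-values from 0.0511 to 0.0936. With arrays unscaled or scaled on spike-ins neither was called, at limma adjusted p = 0.641 and 0.538 for AT5G28750 and 0.852 and 0.788 for SECE1. With the replicate block added, AT5G28750 was called unscaled but not on spike-ins (limma adjusted p = 0.0472 and 0.0708). SECE1 was called in neither (limma adjusted p = 0.309 and 0.307). PSAN, a photosystem I subunit that sits in the lumen, had a log2 fold change of -1.37 ± 0.16, and CHL, the lumen lipocalin, one of -0.41 ± 0.54 (SE, 3 against 3 arrays, limma adjusted p = 0.559). The call of PSAN was lost with arrays unscaled or scaled on spike-ins (limma adjusted p = 0.328 and 0.210). It was kept under both when the replicate block was added (limma adjusted p = 0.00232 and 0.00186).

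Of 35 listed nuclear genes for subunits of the photosystem, ATP synthase and light harvesting complexes, 7 had a probe set and 7 fell, with a median log2 fold change of -0.94. The median of the 24 lumen genes was -1.49. With median scaling the medians were -1.32 for the 7 genes and -1.54 for the lumen genes. They were -0.77 and -0.999 without scaling, and -0.82 and -1.04 with spike-in scaling. The distance between the medians was thus widest with quantile normalization and nearly the same in the other settings given here, and it was not tested. PSBY had a log2 fold change of -1.77 ± 0.18 and PSBW, another small photosystem II subunit, one of -0.67 ± 0.16 (SE, 3 against 3 arrays). With arrays unscaled or scaled on spike-ins 1 of the 7 was called, LHCB4.3, and all 7 estimates stayed below 0. With the replicate block added, 6 and 5 of the 7 were called lower under these scalings, against 12.7% and 12.6% of tested probe sets. Although the lumen subunits of the NDH complex were not analysed here, 3 of 12 listed nuclear subunits outside the lumen were. NdhN and NdhL fell, with log2 fold changes of -2.21 ± 0.21 and -1.67 ± 0.30, whereas NdhS had one of 0.092 ± 0.21 (SE, 3 against 3 arrays, limma adjusted p = 0.745). With arrays unscaled or scaled on spike-ins the limma adjusted p was 0.122 and 0.0536 for NdhN and 0.295 and 0.181 for NdhL. With the replicate block added it was 0.00082 and 0.000213 for NdhN and 0.00221 and 0.00109 for NdhL.

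The mesophyll list, made of Calvin cycle genes, had 3 of 7 members with a probe set, and RCA, PRK and SBPASE all fell, with log2 fold changes of -0.82, -1.31 and -1.77. RCA lost its call without watered replicate 1 or 2, without water deficit replicate 2 or 3, with the floor at the 25th percentile and with no filter (limma adjusted p from 0.0621 to 0.111). Their summed normalized signal was 13149 to 18214 on watered arrays and 5405 to 9523 on water deficit arrays. FMA, the guard cell gene among 4 listed, had a log2 fold change of -0.38 ± 0.17 (SE, 3 against 3 arrays, limma adjusted p = 0.103), with a signal of 48.6 to 51.6 on watered and 35.0 to 41.8 on water deficit arrays. The root gene EXPA7, 1 of 5 listed, was at the floor on all 6 arrays. SAG101, the 1 senescence gene of 6 listed that had a probe set, fell 3.06-fold at least, from 59.5 to 67.0 on watered arrays to 18.5 to 25.7 on water deficit arrays, where 2 of 3 were at the floor. With arrays unscaled or scaled on spike-ins none of these 4 falls was called, at limma adjusted p = 0.582 and 0.473 for RCA, 0.376 and 0.257 for PRK, 0.167 and 0.0825 for SBPASE and 0.400 and 0.282 for SAG101. When the replicate block was added, all 4 were called under both scalings. The limma adjusted p was then 0.0157 and 0.0289 for RCA and 0.00338 and 0.0034 for PRK. It was 0.00143 and 0.000502 for SBPASE and 0.00968 and 0.00506 for SAG101. None of the listed epidermis, phloem, flower or seed genes and none of 10 listed dehydration genes was paired with a probe set. The part of cell makeup in the fall of the lumen transcripts was not tested.

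Over the whole series the arrays differed in brightness, and their mean deposited signal over non-control probe sets was 79.4 to 261 intensity units, lowest for replicate 1 in either group. Once normalized, arrays had Spearman correlations of 0.909 to 0.973 within groups and 0.680 to 0.765 between groups. Without replicate 1 of both groups 19 of the 24 lumen genes were called lower, against 19.5% of tested probe sets, with a median log2 fold change of -1.50. The standard error of a lumen gene was 0.167 to 0.365 log2 units, with a median of 0.219, close to the 0.227 of all tested probe sets.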

How the data were processed

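Rosette RNA was labelled with biotin for Affymetrix ATH1 arrays. Scans were read with the Affymetrix operating software and taken by the authors into Rosetta Resolver, which pooled replicates only at a later step, for ratios. The deposited values are probe set intensity, background-subtracted by the authors on a linear scale and not scaled between arrays, with 13.2% to 17.8% of them not above 0 on each array. The sources used here give no genome build.

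Intensities of 22810 probe sets, 64 of them controls, were quantile normalized over the 6 arrays, and log2 was taken after values under a floor had been set to it. The floor was the highest value of 27 control probe sets for Bacillus transcripts. The 13703 probe sets above it on at least 3 arrays (60.2% of the non-control ones) were tested with limma 3.58.1 in R 4.3.3 (lmFit and eBayes, two-sided, group as the only term) and adjusted by the Benjamini-Hochberg method over all of them, and called at an adjusted p under 0.05. Where an array of the lower group was at the floor, a fold is written as at least that size. The test was checked on made-up data with known changes, and it missed most of the smaller ones. Far fewer probe sets were changed there than were called here, so that miss rate does not carry over to these data. A gene that was not called may still have changed.

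Probe sets were named through the platform annotation and an NCBI gene table (TAIR10.1), used for names alone. It paired 13513 probe sets with 1 gene, 503 with several and 8730 with none. Each lumen gene had a single probe set, so the rule for several was not needed. Families and roles of loci without a symbol come from general knowledge. The genes, lists and tests were chosen with earlier results of these data known. Values on each array were given for the gene with the largest change, the gene with the highest mean signal and any gene called differently from most of its family, and other genes were named only from the lists. The series description calls the replicates biological. Deviations from the group means correlated between same-numbered arrays (r over tested probe sets 0.291, 0.230 and 0.393), against -0.381 to 0.0285 for other combinations, so the numbers in the sample titles were taken to pair them. Deviations cancel within a group, which builds part of this contrast in. Alternatives were other scalings, floors and filters, the replicate block and leaving out arrays. Precision is limited by the number of arrays.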

Additional observations from a re-analysis of the deposited data

How the results depend on the processing

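In 17 alternatives none of the 24 lumen genes was called higher, and the 19 genes called lower had a fold change below 0 in each in which they were measured. AT1G74070 was not measured where signal above the floor on all arrays was required, which left 23 of the 24 genes and 18 of the 19. In the 13 alternatives that kept quantile normalization or median scaling, 15 of the 19 kept their call in each, AT1G74070 kept it in the 12 that measured it, and AT1G03600, AT3G05410 and AT5G42765 lost it in at least 1. Leaving out each array in turn gave 16 to 19 genes called lower, against 16.2% to 21.3% of tested probe sets. The median log2 fold change was -1.51 to -1.42. Over the array 4312 to 5647 probe sets were called in either direction, compared with 6146 for all 6 arrays. With no scaling 0 lumen genes were called, the median was -0.999 and 1400 probe sets were called in either direction. With spike-in scaling these values were 3, -1.04 and 1869. The share of tested probe sets called lower was 2.48% with no scaling and 3.5% with spike-in scaling. With the replicate block added the medians were also -0.999 and -1.04, and 14 genes were called in each, against 12.7% and 12.6% of tested probe sets called lower. Under quantile normalization the replicate block added AT4G17740 and changed no other call among the 24 genes.

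Only genes that were not called changed direction. With no scaling, with or without the replicate block, the log2 fold change was 0.014 for AT2G26340, 0.094 for AT1G12250, 0.43 for AT5G13410, 0.43 for AT1G77090, 0.14 for CHL and 0.19 for FMA. With spike-in scaling, with or without the replicate block, it was 0.051 for AT1G12250, 0.39 for AT5G13410, 0.39 for AT1G77090, 0.096 for CHL and 0.15 for FMA. NdhS had one of -0.12 with median scaling. With each array left out in turn it ranged from -0.31 to 0.037 for AT5G13410, -0.21 to 0.041 for AT1G77090, -0.71 to 0.12 for CHL and -0.057 to 0.21 for NdhS. The direction turned for AT5G13410 without watered replicate 1 or water deficit replicate 3, for AT1G77090 and NdhS without watered replicate 1, and for CHL without watered replicate 3 or water deficit replicate 2. The cause of these turns was not tested. Each lumen gene had 1 probe set, so averaging several probe sets of a gene gave no further value. Signals near the floor limit AT1G74070, whose fold is a lower bound.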
